A study of Mus musculus with 4 samples.

Results

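The genes described here are 10 of the 47633 genes measured in mouse embryonic stem (ES) cells and cells derived from them: 6 target genes of the YAP-TEAD transcription complex (Ankrd1, Ctgf, Cyr61, Thbs1, Amotl2 and Axl), the coactivators Yap1 and Wwtr1, and the DNA-binding factors Tead1 and Tead2. They were picked by symbol, with Ctgf and Cyr61 also known as Ccn2 and Ccn1, and the list was chosen on measured values of these same libraries. Their differences between the libraries are therefore given as description, with no test. All 6 target genes were higher than in both ES libraries after 2 days without leukaemia inhibitory factor (LIF), and all 6 were lower than in both ES libraries in a library labelled embryoid body (EB). The coactivators and TEAD factors lay within 1.29-fold of the ES mean in either library.

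The cells were 129S2/SvPas mouse ES cells, with 21-24 entered as their cell type. They were grown in serum with LIF, the cytokine that holds ES cells undifferentiated, on a layer of mitomycin C-treated fibroblasts from C57/BL6 embryos. There were 4 libraries: 2 of ES cells (ES 1 and ES 2), 1 of cells kept 2 days without LIF (LIF withdrawal, or the 2-day library) and 1 from cells kept 5 days without LIF, here the EB library, whose label is embryoid body (a floating cluster in which ES cells differentiate). Neither derived state has a replicate, and the labels do not say whether ES 1 and ES 2 are separate cultures, so the spread between them may be technical. It is not stated whether feeder fibroblasts were removed before RNA was taken, and in bulk RNA fewer cells of a type cannot be told apart from less RNA per cell.

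YAP and TAZ (the product of Wwtr1) bind no DNA themselves and act through the TEAD proteins. In the Hippo pathway, the kinases MST1 and MST2 with their scaffold SAV1 activate the kinases LATS1 and LATS2, which phosphorylate YAP and TAZ and so keep them out of the nucleus. Cell spreading, matrix stiffness and actin tension favour nuclear YAP and TAZ, and in the early embryo YAP with TEAD4 turns on trophectoderm genes. RNA levels, the only quantity measured here, do not report where the YAP protein is or whether it is phosphorylated.

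The values are FPKM, a fragment count scaled by gene length and by library depth, which allows levels of different genes to be compared per length. Estimated depth ran from 18.1 M to 31.5 M fragments, lowest after LIF withdrawal, where the 10 most abundant genes held 44.7% of the FPKM sum against 9.8% to 17.4% in the other libraries. Median-of-ratios factors nevertheless lay between 0.977 and 1.02, and the median difference from ES cells over 15676 genes was 0.04 after LIF withdrawal and -0.01 in the EB library, on the log2(FPKM + 1) scale that all log2 differences below use. The 6 ES markers Pou5f1, Nanog, Sox2, Zfp42, Esrrb and Klf4 summed to 1253 and 1225 FPKM in ES 1 and ES 2, 1135 in the 2-day library and 1329 in the EB library. The sum of ES markers was thus not lower in the EB library, where 4 of the 6 lay above both ES libraries and 2 below. The 2 were Klf4, at 131 FPKM against 176 and 165 in the ES pair, and Pou5f1, at 461 against 489 and 472. EB therefore stands only for its label.

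**Figure D1:**
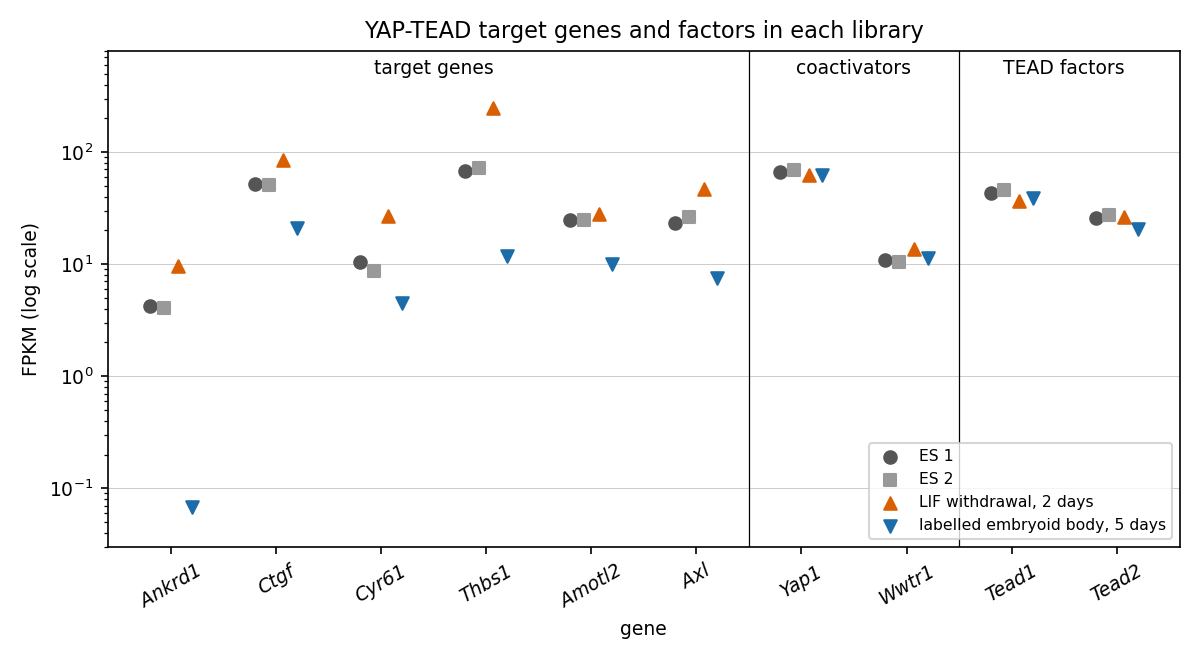
FPKM (log scale) of the 6 target genes, 2 coactivators and 2 TEAD factors in each of the 4 libraries, 1 symbol per library. For each target gene the LIF-withdrawal symbol lies above and the EB symbol below both ES symbols, while Yap1, Wwtr1, Tead1 and Tead2 stay within a narrow band.

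Among the target genes, Ankrd1 had the largest FPKM ratio between the derived libraries. On the log2(FPKM + 1) scale Thbs1 lay farther from the ES mean on both sides, at 1.8 and -2.47. Ankrd1 encodes a nuclear ankyrin-repeat cofactor that responds to mechanical stretch, and lies at chr19:36111961-36120099 on the minus strand (mm10, ENSMUSG00000024803.8). Ankrd1 was at 4.23 FPKM in ES 1, 4.10 in ES 2, 9.64 in the 2-day library and 0.0682 in the EB library. The ES libraries lay close together (4.17 ± 0.0916, SD, n = 2), with the other libraries on opposite sides of them. The differences from the ES mean were 1.04 after LIF withdrawal and -2.27 in the EB library (log2). The low value there corresponds to about 5 fragments, a number worked back from FPKM with the estimated depth and 2886 bases of annotated exons. A Poisson 95% interval for 5 fragments runs from 0.0213 to 0.153 FPKM. It covers counting error only and leaves out the error of the depth and length used. The ratio of the LIF-withdrawal level to the EB level was 141, or 63.0 to 453 over that interval. No other member was so close to the counting limit, the next being Cyr61 with 240 fragments.

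Ctgf and Cyr61 encode secreted matricellular proteins of the CCN family and are among the most used readouts of YAP activity. Ctgf (chr10:24595442-24598683, plus strand) was at 51.7 and 51.1 FPKM in the ES pair, 84.3 after LIF withdrawal and 21.1 in the EB library, differences of 0.70 and -1.24 on the log2 scale. Cyr61 (chr3:145646976-145649981, minus strand) was at 10.5 and 8.72, then 27.1 and 4.49 FPKM, differences of 1.41 and -0.94. Neither derived library overlapped the ES pair for these genes, but Cyr61 had the widest gap between ES 1 and ES 2 of the 10 genes, 1.20-fold. Ctgf was the more abundant of the pair everywhere, by 4.93- and 5.86-fold in the ES libraries, 3.11-fold after LIF withdrawal and 4.70-fold in the EB library. The annotated antisense transcript Gm15270 covers 23.2% of the Ctgf exons and was at 0.351, 0.237, 4.24 and 0.590 FPKM in the same order. Whether the counting separated the strands is not given in the sources used here, so the Ctgf value after LIF withdrawal may include reads from it. Ctgf was not alone in this. Gm19553, antisense to Pou5f1, was at 9.95 FPKM after LIF withdrawal and at most 0.106 elsewhere. Gm2366, antisense to Fat1, was at 5.51 and elsewhere at 0. Other opposite-strand transcripts, such as Gm29233 at Thbs1, were at 0 in every library. The cause was not tested.

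Thbs1 encodes thrombospondin 1, a matricellular protein that activates latent TGF-beta (chr2:118111876-118127133, plus strand). It was the most abundant target gene in ES cells, at 68.3 and 72.5 FPKM, and stood at 248 after LIF withdrawal and 11.9 in the EB library. It was 3.42-fold above the higher ES library in the former and 5.73-fold below the lower ES library in the latter, the largest distance among the 10 genes after LIF withdrawal. Thbs1 exceeded Ctgf by 1.32- and 1.42-fold in the ES libraries and by 2.94-fold after LIF withdrawal, and was at 0.565 times Ctgf in the EB library, so the rank of these abundant targets changed between the derived libraries.

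Amotl2 encodes an angiomotin-family protein that binds YAP at cell junctions (chr9:102716672-102733418, plus strand). It was at 24.5 and 24.6 FPKM in ES cells, 28.1 in the 2-day library and 9.94 in the EB library. Its position above the ES pair was thus slight (log2 difference 0.19), and its distance below it was larger (-1.22). Axl, a receptor tyrosine kinase for the ligand GAS6 (chr7:25757273-25788705, minus strand), was at 23.3 and 26.6, then 46.6 and 7.53 FPKM. The differences for Axl were 0.88 and -1.60 on the log2 scale, and neither derived library lay between the ES values.

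The direction was shared by all 6 target genes, but its size was not. After LIF withdrawal, 3 of the 10 genes (Ankrd1, Cyr61 and Thbs1) were at least 2-fold above both ES libraries, as were 12.4% of the 15676 genes tested. Ankrd1 lay just inside this limit at 2.28-fold above the higher ES library and Axl just outside at 1.75-fold. In the EB library, 5 of the 10 (Ankrd1, Ctgf, Thbs1, Amotl2 and Axl) were at least 2-fold below both, as were 3.23% of all genes, with Ctgf just inside at 2.42-fold and Cyr61 just outside at 1.94-fold. Counting position alone, 7 of the 10 were above both ES libraries after LIF withdrawal (48.4% of all genes), 9 were below both in the EB library (42.9%), and 6 did both (16.8%). Because the genes were selected on these values, nothing is read from these shares. The summed target level was 183 and 188 FPKM in the ES pair, 444 after LIF withdrawal and 55.0 in the EB library. Without Thbs1 the sums were 114, 115, 196 and 43.1 FPKM.

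**Figure D2:**
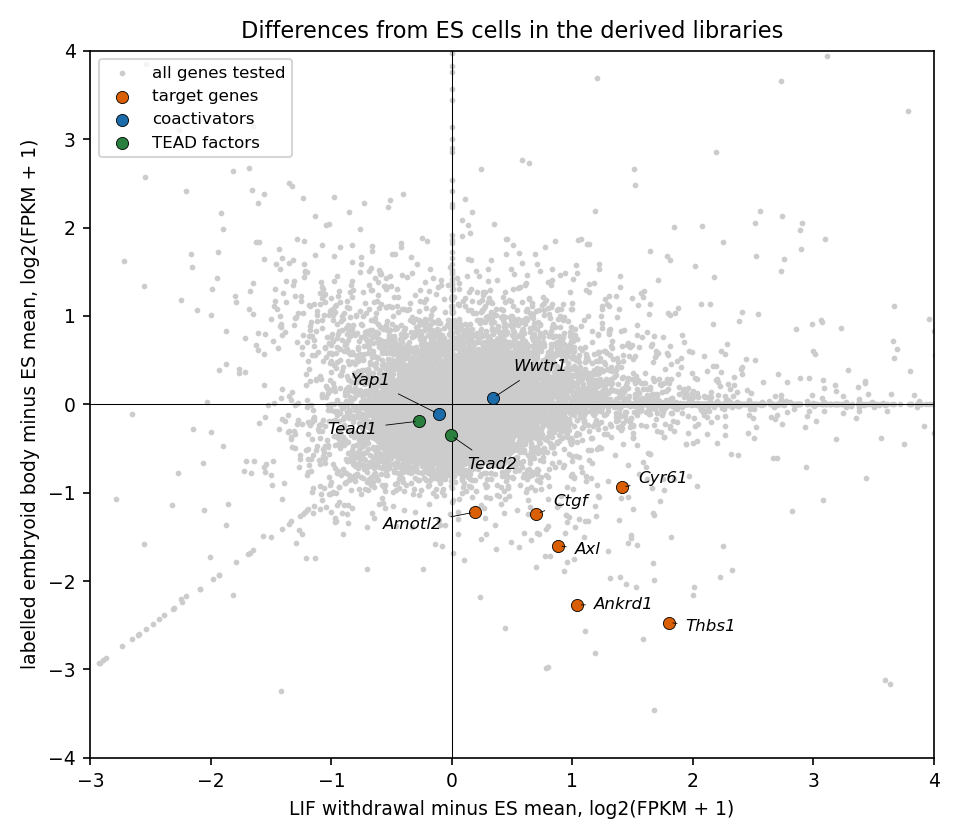
Difference from the ES mean in log2(FPKM + 1) after LIF withdrawal (horizontal) and in the EB library (vertical), with all 15676 genes tested in grey and the 10 genes named and coloured by role. The axes leave out 165 genes with larger differences, both axes share the ES mean, and the 6 target genes lie at the lower right while the 4 factors lie near the origin.

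The promoters of the target genes are shown because the TEAD proteins, whose known targets they are, have a known binding motif. The list was chosen on values of these libraries, and regulation by YAP-TEAD was not tested. TEAD proteins bind the MCAT element, whose core is GGAATG, which reads as CATTCC on the opposite strand. RefSeq promoter windows on GRCm38.p6, running from 250 bases before to 50 after an annotated start, were searched for GGAATG on both strands. Entries matched 7 of the 10 genes, and Ctgf, Thbs1 and Tead1 had none. The windows of the target genes are printed 5′ to 3′ along the gene, with each match in capitals: Ankrd1 at chr19:36119795-36120094 (minus strand), Cyr61 at chr3:145649936-145650235 (minus), Amotl2 at chr9:102717554-102717853 (plus) and Axl at chr7:25788684-25788983 (minus).
Ankrd1: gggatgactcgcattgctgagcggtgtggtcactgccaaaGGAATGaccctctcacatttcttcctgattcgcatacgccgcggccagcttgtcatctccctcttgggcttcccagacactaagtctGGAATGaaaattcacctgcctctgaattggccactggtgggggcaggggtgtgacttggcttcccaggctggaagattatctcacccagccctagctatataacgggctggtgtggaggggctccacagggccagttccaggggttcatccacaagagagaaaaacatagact
Cyr61: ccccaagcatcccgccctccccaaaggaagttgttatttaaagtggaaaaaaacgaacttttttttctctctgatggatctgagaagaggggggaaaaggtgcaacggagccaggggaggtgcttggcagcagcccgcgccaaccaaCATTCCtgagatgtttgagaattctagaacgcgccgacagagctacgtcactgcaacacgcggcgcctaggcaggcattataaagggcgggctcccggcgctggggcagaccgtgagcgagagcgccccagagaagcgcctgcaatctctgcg
Amotl2: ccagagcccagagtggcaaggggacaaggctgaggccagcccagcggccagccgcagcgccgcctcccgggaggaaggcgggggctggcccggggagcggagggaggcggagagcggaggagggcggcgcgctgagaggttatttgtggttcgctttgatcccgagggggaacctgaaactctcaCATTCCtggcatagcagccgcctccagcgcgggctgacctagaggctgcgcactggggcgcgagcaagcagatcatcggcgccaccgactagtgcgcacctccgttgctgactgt
Axl: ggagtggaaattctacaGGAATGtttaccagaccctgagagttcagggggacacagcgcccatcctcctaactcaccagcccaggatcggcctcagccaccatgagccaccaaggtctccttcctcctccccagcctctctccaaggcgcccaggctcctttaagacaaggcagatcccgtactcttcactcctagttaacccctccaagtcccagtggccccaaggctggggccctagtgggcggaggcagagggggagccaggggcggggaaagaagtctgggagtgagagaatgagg
Each of these 4 windows held the motif, which occurred in 14.7% of all 32851 promoter windows of the same length. The 4 genes were listed as known TEAD targets, so nothing is read from that share. Ankrd1 had a pair of matches, beginning 210 and 123 bases before the start, and only 1.36% of all windows held 2 or more. The match began 103 bases before the start in Cyr61, 65 in Amotl2 and 233 in Axl. In Cyr61 and Amotl2 it stood on the opposite strand, so CATTCC is in capitals there. Yap1 and Wwtr1 also held 1 match each, 141 and 136 bases before the start, whereas Tead2 held none, so the presence of the motif in these windows did not separate the targets from the factors. The AP-1 motif TGANTCA, which reads the same on both strands and shares no position with the TEAD core here, was in 7.8% of all windows and in 0 of the 7 genes' windows. A match is a stretch of letters and no measurement of binding, and YAP-TEAD is known to act largely through distal enhancers, which lie outside these windows.

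The coactivators showed no such spread. Yap1 (chr9:7931999-8004596, minus strand) was at 66.3 and 68.5 FPKM in ES cells, 62.3 in the 2-day library and 62.1 in the EB library. Both derived libraries lay just below the ES pair, by 0.11 on the log2 scale. Wwtr1, encoding TAZ (chr3:57455649-57575910, minus strand), was at 10.9 and 10.4, then 13.8 and 11.3 FPKM, differences of 0.34 and 0.07. Yap1 exceeded Wwtr1 per length by 6.05- and 6.56-fold in the ES libraries, 4.53-fold after LIF withdrawal and 5.52-fold in the EB library, so Yap1 was the main transcript of the pair throughout.

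Of the TEAD factors, Tead1 (chr7:112679318-112906807, plus strand) was at 43.0 and 45.5 FPKM in ES cells, 36.4 in the 2-day library and 38.6 in the EB library. Tead2 (chr7:45215753-45233644, plus strand) was at 26.0 and 27.4, then 26.5 and 20.8 FPKM. Tead1 was a little below the ES pair in both derived libraries (-0.27 and -0.19 on the log2 scale), whereas Tead2 was within it after LIF withdrawal (-0.01) and below it in the EB library (-0.35). Tead4, which acts with YAP in trophectoderm, was at 5.25 ± 0.378 (SD, n = 2), 8.97 and 6.31 FPKM, and Tead3 at 1.94 ± 0.0190, 3.05 and 0.901 FPKM. Neither was called by limma (adjusted p = 0.100 and 0.0676 after LIF withdrawal, 0.310 and 0.139 in the EB library). The 4 TEAD genes summed to 76.0 and 80.4 FPKM in ES cells, 74.9 and 66.6 in the derived libraries. Tead1 made up 56.6% of this sum in both ES libraries, 48.6% after LIF withdrawal and 58.0% in the EB library, and the Tead4 share was 6.56% and 6.87%, then 12.0% and 9.47%.

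Ordered by level, ES cells had Thbs1 (70.4 FPKM) and Yap1 (67.4) at the top with overlapping ES values, then Ctgf (51.4) and Tead1 (44.2). Tead2, Axl and Amotl2 followed at 26.7, 24.9 and 24.5 FPKM, neighbours that overlapped in turn, then Wwtr1 (10.7) and Cyr61 (9.61), which also overlapped, and Ankrd1 (4.17). After LIF withdrawal Thbs1, Ctgf and Yap1 led, in that order. In the EB library the factors Yap1 and Tead1 led, above every target gene, and Ankrd1 was 65.9-fold below the next gene, Cyr61.

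Other genes of the pathway were read from lists of 46 genes, of which 40 passed a minimum of 1 FPKM in at least 1 library. These lists, and those of actin, relative and marker genes below, were chosen with earlier results of these data known. Their shares beside all genes are therefore description only. The test was limma on log2(FPKM + 1) over all 15676 genes, and calls needed a difference of at least 1 with an adjusted p (Benjamini-Hochberg) under 0.05. After LIF withdrawal 2 of the 40 rose and 0 fell, against 7.67% of all genes called, and 18 of the 40 were at unadjusted p under 0.05, as were 37.2% of all genes. In the EB library 0 were called, against 0.396% of all genes, with 17 at unadjusted p under 0.05, as were 27.7% of all genes. The test has 1 residual degree of freedom, from the ES pair. In the EB library every call of this fit was a rise, so no falling gene of any list was called there. The same fit was made on 6808 strand-clear genes, meaning coding or long non-coding genes with 1000 bases of exons or more and no gene body facing them on the other strand. There, 3 of 24 pathway genes rose after LIF withdrawal (3.04% of the 6808 genes were called) and 1 of 24 fell in the EB library (2.31% called).

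The genes that rose were Vgll3 and Ccdc80 in both fits and F3 in the strand-clear fit. With a pseudocount of 0.1 in place of 1, 0 of the pathway genes were called after LIF withdrawal, so both calls over all genes depend on that setting. Vgll3, a vestigial-like TEAD cofactor, was at 3.83 and 3.85 FPKM in ES cells, 9.46 in the 2-day library and 1.66 in the EB library (log2 difference 1.11, SE 0.05, limma adjusted p = 0.0444 after LIF withdrawal). Ccdc80, a secreted matrix protein, was at 2.44 and 2.22, then 9.30 and 1.27 FPKM (1.63, SE 0.08, adjusted p = 0.0442). F3, the coagulation initiator tissue factor, was at 11.7 and 10.5, then 32.4 and 3.09 FPKM. Its limma adjusted p in the strand-clear fit was 0.0196 for the rise of 1.46 after LIF withdrawal and 0.0252 for the difference of -1.57 in the EB library. Over all genes F3 was not called (adjusted p = 0.0610 and 0.139), and it is named because of its strand-clear calls. All 3 genes lay above both ES libraries after LIF withdrawal and below both in the EB library, as did the 6 target genes.

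Among the Hippo kinases limma called 0 of 9 in either library, against 7.67% of all genes after LIF withdrawal and 0.396% in the EB library. At unadjusted p under 0.05 were 3 after LIF withdrawal (37.2% of all genes) and 4 in the EB library (27.7%). This fit missed changes put into simulated data in which few genes were changed, although it called genes in both measured comparisons. The simulated setting thus differs from the measured one, and a count of 0 here is not read either way. Lats2, which is both a YAP inhibitor and a known YAP target, was at 3.71 and 4.26 FPKM in ES cells, 15.8 in the 2-day library and 1.76 in the EB library. Its difference of 1.75 after LIF withdrawal missed the threshold (limma adjusted p = 0.0586), as did -0.85 in the other library (0.149). Lats1 was nearly level, at 10.6 ± 0.118 (SD, n = 2), 10.9 and 11.0 FPKM, so the 2 LATS genes differed in their profiles. Map4k4, a kinase that acts beside MST1 and MST2, was at 64.5 ± 1.47, 59.4 and 125 FPKM, with a difference of 0.95 in the EB library that was not called (limma adjusted p = 0.139). Taok1, which activates MST kinases, was at 46.7 ± 0.481, 53.5 and 51.4 FPKM.

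Of 14 upstream scaffolds tested, limma called 0 after LIF withdrawal (7.67% of all genes called) and 0 in the EB library (0.396%). At unadjusted p under 0.05 were 4 after LIF withdrawal (37.2% of all genes) and 5 in the EB library (27.7%). Nf2 (merlin), which recruits LATS kinases to the membrane, was at 46.7 ± 2.59, 43.3 and 57.3 FPKM, and the giant cadherin Fat1 at 108 ± 1.08, 103 and 110 FPKM (SD, n = 2). The median difference over these scaffolds was 0.06 after LIF withdrawal and -0.15 in the EB library, and over the 9 kinases 0.05 and -0.00. Vgll4, a TEAD cofactor that competes with YAP, was at 5.37 ± 0.106, 6.76 and 5.28 FPKM (limma adjusted p = 0.131 and 0.864). Vgll1 was listed at 0 in every library.

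Beyond the 6 members, 15 other known YAP targets were tested, and their median differences were 0.30 and -0.07, against 0.04 and -0.01 over all genes. Of the 15, 7 lay above both ES libraries after LIF withdrawal and below both in the EB library (16.8% of all genes). Gadd45a, a stress-response gene, was at 21.1 ± 2.29, 20.1 and 26.4 FPKM, and Asap1, an ARF GTPase-activating protein, at 18.0 ± 0.461, 26.2 and 17.1 FPKM (SD, n = 2). Across all 40 pathway genes the pattern was seen in 16, against 16.8% of all genes. Because the lists were chosen with earlier results of these data known, nothing is read from these medians and shares.

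**Figure D3:**
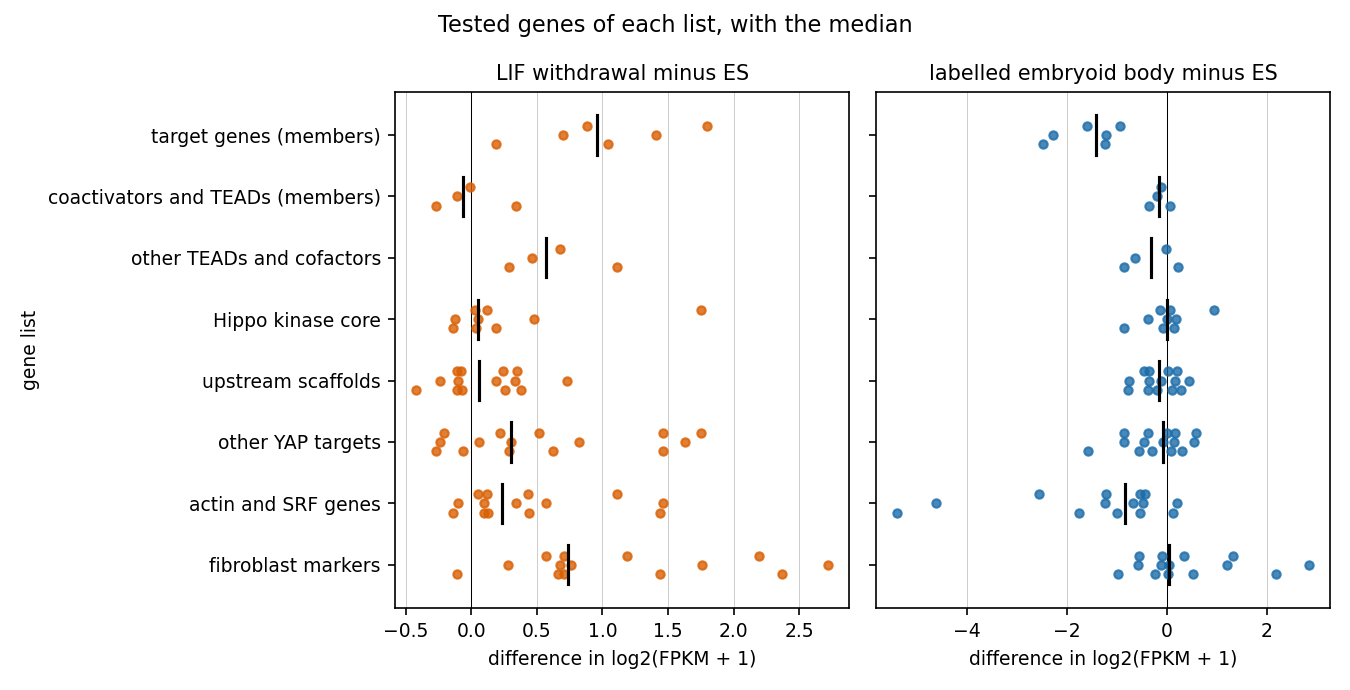
Difference from the ES mean in log2(FPKM + 1) for the tested genes of each list (1 point per gene, bar at the median), after LIF withdrawal (left) and in the EB library (right). The 6 target genes lie to the right of 0 in the left panel and to the left of 0 in the right panel, the actin and SRF genes reach -5.40, and the kinases and scaffolds centre near 0.

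Genes of the actin cytoskeleton and its regulator SRF, many of which also respond to tension, followed the same order of libraries in part. Acta2, smooth-muscle alpha-actin, was at 82.8 and 88.7 FPKM in ES cells, 234 in the 2-day library and 1.06 in the EB library. It rose after LIF withdrawal (1.44, SE 0.07, limma adjusted p = 0.0427), and its difference of -5.40 in the other library was called in the strand-clear fit (0.00782) but not over all genes (0.0788). Tagln, an actin-binding protein of smooth muscle, was at 52.4 and 56.6, then 152 and 1.26 FPKM, and rose after LIF withdrawal (1.46, limma adjusted p = 0.0455). The annotated antisense transcript Gm48529 covers 62.4% of the Tagln exons and has no value in these data, so the Tagln levels may include reads from it. Of the 14 actin and SRF genes tested, 2 rose after LIF withdrawal in the limma fit over all genes (7.67% of all genes called). In the EB library this fit called no falling gene, in this list or among all genes tested. Its lack of calls is therefore not read as a result about these genes. In the strand-clear fit 5 of 9 fell there, namely Acta2, Actg2, Cnn2, Tpm1 and Myl9, against 0.778% of all 6808 genes. The pattern of the target genes was seen in 9 of the 14 (16.8% of all genes), and the median differences were 0.24 and -0.83. Summed over the list, the levels were 606 and 625 FPKM in ES cells, 923 in the 2-day library and 293 in the EB library.

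Family relatives of the targets took several profiles. Thbs2, the closest relative of Thbs1, was at 1.55 and 1.54 FPKM in ES cells and higher in both derived libraries, at 13.5 and 9.51 FPKM (2.51, SE 0.05, limma adjusted p = 0.0166 after LIF withdrawal). Its difference of 2.05 in the EB library was called in the strand-clear fit (limma adjusted p = 0.0171) but not over all genes (0.130). Wisp1, a CCN-family relative of Ctgf and Cyr61, was at 2.75 and 2.80, then 10.5 and 1.31 FPKM, and rose after LIF withdrawal (1.61, limma adjusted p = 0.0287). The Axl ligand Gas6 was at 3.80 ± 0.0828 (SD, n = 2), 6.35 and 4.08 FPKM, and the Axl relative Tyro3 at 10.1 ± 0.589, 9.31 and 14.4 FPKM. These last 2 were named after their values were seen, as the ligand and the receptor relative of a member.

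Fibroblasts, which were used as feeders, are known to express several of these target genes, so markers of fibroblasts are given beside them. The 15 fibroblast markers summed to 57.0 and 56.3 FPKM in ES 1 and ES 2, 196 in the 2-day library and 69.7 in the EB library. After LIF withdrawal 13 of the 14 tested were above both ES libraries (48.4% of all genes), and 4 rose by limma (7.67% of all genes called): Postn from 2.59 ± 0.286 to 22.7 FPKM (adjusted p = 0.0396), S100a4 from 13.3 ± 1.08 to 73.2 (0.0397), Dcn from 0.679 ± 0.0224 to 6.68 (0.0192) and Col5a2 from 7.68 ± 0.0584 to 28.4 (0.0202). The marker sum was 3.43-fold and the target sum 2.37-fold above the higher ES library, and the part of fibroblast RNA in the target levels was not tested. In the EB library the marker sum was above both ES libraries while the target sum was 3.32-fold below the lower one. Single markers split there, with 6 of 14 above and 5 below both ES libraries. At least 2-fold above both were 4 of them, as were 749 of all 15676 genes. These were Dcn at 11.1 FPKM, Col6a1 at 7.27, Pdgfrb at 4.80 and Col3a1 at 4.31. Only 1, Col5a2 at 3.44 FPKM, was at least 2-fold below both (3.23% of all genes). Lum was listed at 0 in ES 2 and reached 0.493 FPKM at most.

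**Figure D4:**
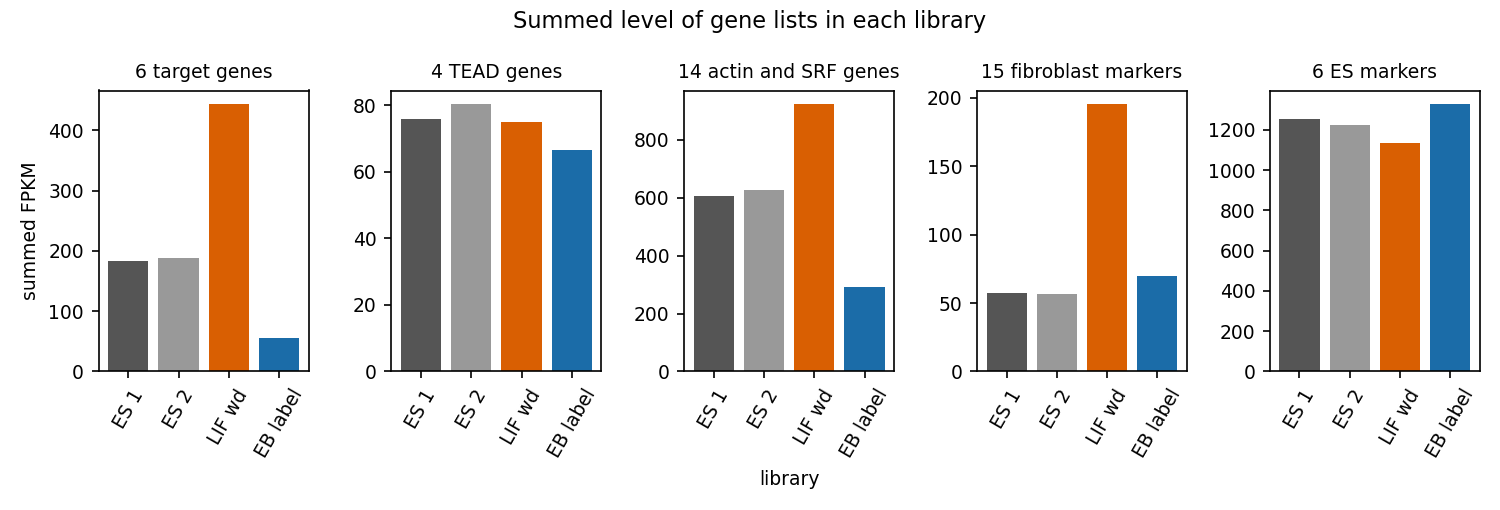
Summed FPKM of the 6 target genes, the 4 TEAD genes, 14 actin and SRF genes, 15 fibroblast markers and 6 ES markers in each library (bars from 0, 1 library each). Targets and actin genes are highest after LIF withdrawal and lowest in the EB library. The fibroblast marker sum in the EB library, 69.7 FPKM, is above both ES libraries, but single markers split there. Of the 14 tested, 6 were above and 5 below both ES libraries, 4 and 1 of them by at least 2-fold.

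Markers of the extraembryonic lineages, which ES cultures can also hold, are given as sums. The 7 trophectoderm markers summed to 13.6 and 13.8 FPKM in ES cells, 14.4 in the 2-day library and 9.36 in the EB library, most of it from the keratins Krt18 (8.59 ± 0.00139, 8.27 and 5.76 FPKM) and Krt8 (3.30 ± 0.151, 4.33 and 2.79 FPKM; SD, n = 2). Cdx2, the trophectoderm factor that YAP and TEAD4 activate in the embryo, was at 1.02 and 0.786 FPKM in the ES pair, 0.205 after LIF withdrawal and 0.0345 in the EB library, and was named after its values were seen. For comparison, 3 fragments in a gene model of 1 kb correspond to 0.095 to 0.166 FPKM in these libraries, a limit for counting error only. The 6 primitive endoderm markers summed to 25.4 and 24.7, then 23.3 and 21.6 FPKM, with Lama1 at 16.9 ± 0.200 (SD, n = 2) and Dab2 at 5.96 ± 0.0494 in ES cells.

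The 8 protein-coding genes whose pair of differences lay nearest to the target medians of 0.96 and -1.42 were sought among 8462 candidates at an ES mean of at least 5 FPKM, with Euclidean distance on the log2 scale over the 2 derived libraries. They were, in order, Arhgdib (distance 0.150), Itpripl2 (0.197), Auts2 (0.286), Phldb2 (0.324), Anxa2 (0.351), Capn2 (0.367), Ghr (0.391) and Flnc (0.409). Anxa2, a membrane-binding annexin, was at 30.8 and 33.4 FPKM in ES cells, 55.5 in the 2-day library and 9.06 in the EB library. Flnc, an actin cross-linking filamin, was at 8.12 and 7.86, then 13.1 and 3.02 FPKM. Auts2 differs from the rest in that its ES libraries stood far apart, at 16.6 and 84.2 FPKM, so its likeness rests on a mean of unlike values. None of the 8 was in any list above.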

How the data were processed

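Total RNA libraries were sequenced in 2 libraries of ES cells and 1 of each derived state. The authors deposited FPKM, 1 value per gene and library. Per the submitters' processing notes, Trimmomatic 0.36, STAR, Cufflinks and mm10 were used; their options, annotation and strandedness are not stated in those notes. Gene positions came from GENCODE M21 (47219 of 47633 identifiers matched) and promoters from RefSeq. Depth was estimated from the FPKM step of a single fragment.

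The members and gene lists were chosen with earlier results of these data known. Members were not tested. Other genes were tested with limma 3.58.1 (R 4.3.3, trend on mean expression) on log2(FPKM + 1), with all 4 libraries in 1 fit. The ES pair alone gives its 1 residual degree of freedom, and the spread of the unreplicated libraries is assumed to be the same. Both comparisons share the ES libraries. Folds are ratios of FPKM, and log2 differences understate those of low genes. Named genes outside the members were those called in each list (up to 4 per comparison), or the 2 most abundant where fewer than 2 were called, plus Tead3, Tead4, Lats1, Lats2, Nf2, Vgll4 and the 8 nearest genes. F3, Gas6, Tyro3, Cdx2, Lum, Vgll1, Actg2, Cnn2, Tpm1, Myl9, Col6a1, Pdgfrb and Col3a1 were named after their values were seen. The fit was tested on simulated data in which few genes were changed. Over all genes it missed the changes put in, whereas the strand-clear fit found most of them. In the measured data the fit over all genes did call genes, so the simulated setting differs from the measured one. A count of 0 in that fit is therefore not read either way.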

Additional observations from a re-analysis of the deposited data

Results flagged for a closer look

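Several genes stood at least 2-fold on opposite sides of both ES libraries in the derived libraries, above after LIF withdrawal and below in the EB library. The difference between the derived libraries has no replicate and was not tested. Among the members these were Ankrd1, whose FPKM ratio of LIF withdrawal to the EB library was 141.4, and Thbs1, at 20.83. Among the pathway genes the ratio was 5.708 for Vgll3, 8.933 for Lats2 and 10.47 for F3. Among the actin genes it was 221.0 for Acta2, 120.4 for Tagln and 25.34 for Myl9. The matricellular gene Wisp1 was at 8.055 and the collagen gene Col5a2, a fibroblast marker, at 8.257.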

How the results depend on the processing

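Of 80 member log2 differences recomputed with a pseudocount of 0.1, median-of-ratios factors or 1 ES library left out, 1 changed sign: Tead2 after LIF withdrawal, to 0.02 without ES replicate 2. None of the 48 values of target genes did. The largest shift was 2.39, for Ankrd1 in the EB library with the pseudocount of 0.1, and 0.13 in the other settings. With 1 ES library left out, the count of members at least 2-fold above the ES level after LIF withdrawal was 3 to 4, and of those below it in the EB library 5 to 6.

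Of the limma counts after LIF withdrawal, 1203 genes became 395 at a minimum of 5 FPKM and 207 in the strand-clear set, both with fewer genes tested, and the 2 pathway genes became 0 with a pseudocount of 0.1. In the EB library, 62 genes became 131 with a pseudocount of 0.1, 138 without a filter, 41 at a minimum of 5 FPKM, 0 without a trend and 157 in the strand-clear set, where the pathway genes went from 0 to 1. The cause was not tested. Leaving out an ES library leaves limma no residual degrees of freedom, so it was not run. No paired analysis was possible because the derived groups have 1 library each. Depth limits only Ankrd1 among the members, in the EB library.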
